A study of Homo sapiens with 6 samples.

Results

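The colony-stimulating factors are secreted cytokines, named for the blood cell colonies they raise from marrow progenitors. 6 genes of this system were taken by name from the 54259 gene symbols of the count table, which are the ligand genes CSF1, CSF2 and CSF3 and the receptor subunit genes CSF2RA, CSF2RB and CSF3R. They were chosen with the difference between these same libraries known, so their values are given as a description, without a test. The RNA came from MDA-MB-231, an established human breast cancer cell line. 3 libraries were made from shBry cells, whose short hairpin targets the transcription factor brachyury, and 3 from shNC cells with a control hairpin in its place. No other treatment is given in the labels, and the hairpin sequence, the number of clones and whether libraries came from separate cultures are not given in the sources used here, so p-values measure only the spread between these libraries. The series' design text speaks of pericardial RNA, while the sample labels and the paper's methods name the cell line.

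CSF1, also called M-CSF, supports monocytes and macrophages and acts through a receptor tyrosine kinase encoded by CSF1R. CSF2, also called GM-CSF, acts on granulocytes, macrophages and dendritic cells through a private alpha subunit, encoded by CSF2RA, and a beta subunit, encoded by CSF2RB, which is shared with the receptors of interleukin 3 and interleukin 5. CSF3, also called G-CSF, drives the formation and release of neutrophils through a receptor encoded by CSF3R. Tumor cells can secrete these ligands, and their receptors are mainly found on myeloid cells. CSF2 and CSF3 are textbook cases of cytokine genes that are switched on by inflammatory signals at the promoter and whose mRNA is short-lived because of AU-rich repeats behind the stop codon.

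The regulatory sequences of the ligand genes are shown first, because the genes that act on them are described further on. RefSeq promoter windows (GRCh38.p14) run from 250 bases before to 50 bases after the start of transcription, and 1 of the 3 ligand genes, CSF2, was matched. The window lies at chr5:132073539-132073838 on the plus strand, 5′ to 3′, with motif matches in capitals.
CSF2 promoter: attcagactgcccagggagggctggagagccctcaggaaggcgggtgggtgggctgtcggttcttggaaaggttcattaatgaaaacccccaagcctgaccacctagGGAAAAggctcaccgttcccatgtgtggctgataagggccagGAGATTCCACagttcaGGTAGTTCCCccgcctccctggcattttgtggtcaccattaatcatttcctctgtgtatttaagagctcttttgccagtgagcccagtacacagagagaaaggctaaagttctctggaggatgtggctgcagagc
The capitals mark, from left to right, the NFAT core GGAAAA, the CK-1 element known from cytokine promoters, and a reverse-strand match of the wide NF-kappa-B pattern. Their first bases stand at -143, -101 and -85 from the start, and no match overlaps another. Both strands were searched, for the AP-1, T-box and TATA sites only with the letters given below. Other spellings of these sites were not searched. Of all 35116 promoter windows, 0.231% held the CK-1 element, 24% the NFAT core and 25.6% the wide NF-kappa-B pattern. The letters of the narrow NF-kappa-B pattern (in 0.558% of windows), the AP-1 site TGANTCA (7.71%), the T-box site TCACACC (3.45%) and the TATA box TATAAA (11.5%) did not occur in the CSF2 window.

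The AU-rich repeats are built from the pentamer ATTTA. In GENCODE 29, the longest annotated 3′ UTR of CSF2 has 318 bases and 8 such pentamers, or 25.2 per kilobase, a density reached by 0.111% of 18977 coding genes. That of CSF3 has 7 in 854 bases, or 8.2 per kilobase, reached by 2.14% of genes. That of CSF1 has 4 in 2154 bases, or 1.86 per kilobase, reached by 43.7% of genes. The stretches of 30 bases richest in the pentamer, in the last exon of each gene, are compared here with ATTTA in capitals. They lie on the plus strand of GRCh38 at chr5:132076072-132076101 for CSF2, chr17:40016975-40017004 for CSF3 and chr1:109930911-109930940 for CSF1.
CSF2: ttttaaaatATTTATTTATTTATTTATTTA
CSF3: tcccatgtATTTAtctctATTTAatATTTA
CSF1: tttatataaagtcATTTAaatatctATTTA
The CSF2 stretch holds 5 overlapping pentamers in a row, the CSF3 stretch holds 3 that are spread out, and the CSF1 stretch holds 2.

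Between 19319411 and 22985371 counts per library were listed. A gene at 0 may still have had up to 3 counts, or 0.126 to 0.162 counts per 1000000 (CPM), a limit that covers counting error only. CPM are scaled with edgeR's TMM factors. Brachyury, listed under its older symbol T, had 0 counts in all 6 libraries, so a difference in the targeted gene was not detectable at this depth and the labels could not be checked on it. Of the line's usual markers, VIM, CD44, CAV1, AXL and EGFR were present in every library, and ESR1, PGR and CDH1 had at most 2 counts in any library, while GATA3, on the same list of markers taken as absent, had 10.4 CPM in shNC and 13 in shBry. Of 13 myeloid markers, PTPRC, TYROBP, AIF1, FCGR3A and MPO were at 0 in all libraries, and LYZ, CD53 and ELANE had at most 3 counts in any. The summed level of the 13 markers ranged from 374 to 406 CPM in shNC and from 411 to 438 in shBry, and most of it was CD68, a lysosomal gene also used by other cells (391 and 420 CPM).

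In shBry cells, all 3 ligand genes were higher than in shNC cells, CSF2 by far the most, CSF3 next and CSF1 least. The receptor subunit genes had at most 12 counts in any library, and for CSF2RA the counts do not give its level. Genes were called where edgeR gave an adjusted p (Benjamini-Hochberg) under 0.05 and the groups differed by more than 1.5-fold, and 3 of the 6 genes had enough counts to be tested. All 3 were called higher, where 17.1% of the 15277 tested genes were called higher, 15.2% lower and 32.4% in either direction. All 3 had shBry values above every shNC value, as had 30.6% of tested genes, while 59.5% did not overlap in either direction. Since the genes were picked from this comparison, nothing is read from these counts.

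CSF2 (ENSG00000164400 in GENCODE 29) lies on the plus strand of chromosome 5 (GRCh38) between 132073790 and 132076170 and has a single annotated coding transcript. It had 44, 48 and 37 counts in shNC replicates 1, 2 and 3 and 5686, 7040 and 6944 counts in shBry replicates 1, 2 and 3. On the CPM scale these were 2.02, 2.27 and 1.85 against 306, 297 and 308. The groups were far apart, and the libraries of each group lay close together. The mean was 2.05 ± 0.21 CPM in shNC and 304 ± 5.98 in shBry (SD, n = 3), a fitted difference of 7.21 on the log2 scale with a standard error of 0.11. It ranked 10 among the tested genes, counted from the largest rise. By CPM it stood at percentile 18.6 of the tested genes in shNC and at percentile 96.6 in shBry.

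CSF3 (ENSG00000108342) lies on chromosome 17 from 40015361 to 40017813 on the plus strand. It had 496, 495 and 412 counts in shNC replicates 1, 2 and 3 and 5404, 6148 and 6313 in shBry replicates 1, 2 and 3, or 22.7, 23.4 and 20.6 CPM against 291, 259 and 280. In the control cells both CSF2 and CSF3 were above the limit of 3 counts in every library, and CSF3 stood at the higher level. The mean was 22.3 ± 1.44 CPM in shNC and 277 ± 16.1 in shBry (SD, n = 3), a fitted difference of 3.63 on the log2 scale with a standard error of 0.09, at rank 63.

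CSF1 (ENSG00000184371) lies on chromosome 1 from 109910242 to 109930992 on the plus strand and has 8 annotated coding transcripts, between 551 and 4210 bases long. It had 1825, 1774 and 1265 counts in shNC replicates 1, 2 and 3 and 2153, 2968 and 2702 in shBry replicates 1, 2 and 3, or 83.6, 83.9 and 63.4 CPM against 116, 125 and 120. The groups did not overlap, but shNC replicate 3 lay below the other shNC libraries. The mean was 76.9 ± 11.8 CPM in shNC and 120 ± 4.61 in shBry (SD, n = 3), a fitted difference of 0.64 on the log2 scale with a standard error of 0.10, at rank 2548. This was a fold change of 1.56, little above the limit of 1.5. Without shNC replicate 3 the log2 fold change was 0.50, below that limit. No exon base of the 3 ligand genes is shared with another annotated gene, and no stretch of 50 bases of their transcripts occurs in transcripts of other genes.

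**Figure D1:**
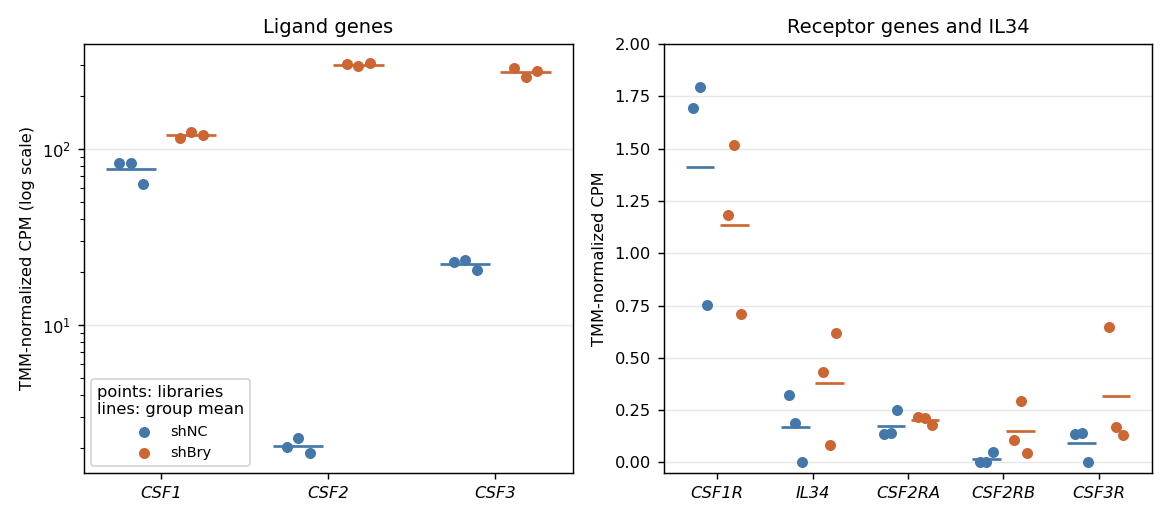
TMM-normalized CPM of the ligand genes (left, log scale) and of the receptor genes and IL34 (right, linear scale) in each library, with points for libraries and lines for group means of 3. CSF2 goes from about 2.05 to 304 CPM, while CSF2RA, CSF2RB and CSF3R stay below 0.65 CPM in every library.

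The make-up of the ligand pool differed between the groups. In shNC cells CSF1 made up 77.2%, 76.6% and 73.8% of the counts on the 3 ligand genes in replicates 1, 2 and 3. In shBry cells its share was 16.3%, 18.4% and 16.9%. CSF2 went the other way, from 1.86%, 2.07% and 2.16% in shNC to 42.9%, 43.6% and 43.5% in shBry. The share of CSF3 was 21% to 24% in shNC and 38.1% to 40.8% in shBry. The ratio of CSF2 to CSF3 counts was 0.0918 ± 0.00451 in shNC and 1.1 ± 0.05 in shBry (SD, n = 3), with libraries of one group closer to each other than to any of the other. The 3 genes together had 101 ± 13.4 CPM in shNC and 700 ± 17.1 CPM in shBry.

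**Figure D2:**
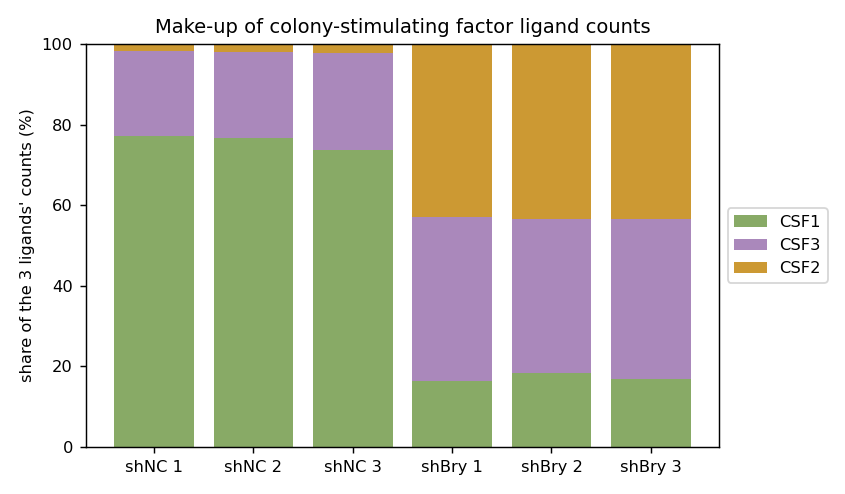
Share of each ligand gene in the counts on CSF1, CSF2 and CSF3, in percent, for each of the 6 libraries. CSF1 fills 73.8% to 77.2% of the pool in the shNC libraries and 16.3% to 18.4% in the shBry libraries.

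Levels of different genes were compared as CPM per kilobase of the longest annotated coding transcript. In shNC the order was CSF1 (18.3 ± 2.8 CPM per kilobase), CSF3 (13.3 ± 0.862) and CSF2 (2.6 ± 0.266). In shBry it was reversed, with CSF2 at 386 ± 7.6, CSF3 at 165 ± 9.65 and CSF1 at 28.6 ± 1.1 (SD, n = 3). The ranges of neighbours in these orders did not overlap, though in shNC the lowest CSF1 library (15 CPM per kilobase) was near the highest CSF3 library (14). The order was the same with the length of all exons joined, where CSF1 had 14.2 and CSF3 10 CPM per kilobase in shNC. For CSF1 and CSF3, whose coding transcripts differ much in length, the level per kilobase depends on the transcript taken. CSF3 has 6 of them, between 579 and 1673 bases long. The orders are therefore given only for the lengths used here.

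**Figure D3:**
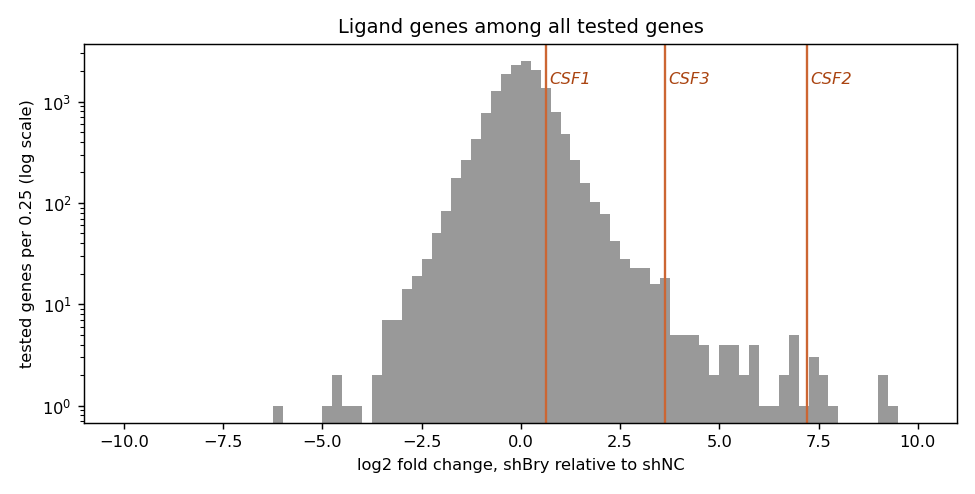
Number of tested genes (log scale) by log2 fold change of shBry relative to shNC, in steps of 0.25, with lines at the 3 ligand genes. CSF1 (0.64) lies within the bulk of the genes, and CSF3 (3.63) and CSF2 (7.21) lie in the thin right tail.

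Among the receptors, CSF2RB and CSF3R were hardly listed. CSF2RB, the shared beta subunit on chromosome 22 from 36913628 to 36940449, had 0, 0 and 1 counts in shNC and 2, 7 and 1 counts in shBry replicates 1, 2 and 3. The summed counts were 1 and 10, a ratio of 9.71 with a 95% counting interval from 1.38 to 421, and 7 of the 10 counts were in shBry replicate 2. CSF3R, on chromosome 1 from 36466043 to 36483278 on the minus strand, had 3, 3 and 0 counts in shNC and 12, 4 and 3 counts in shBry replicates 1, 2 and 3. The sums of 6 and 19 counts had a ratio of 3.07 (interval 1.18 to 9.40), with 12 counts in shBry replicate 1. Of the other shBry libraries, replicate 2 (4 counts) lay just above the shNC libraries and replicate 3 (3 counts) within their range. These intervals are exact and cover counting error only, not the spread between libraries. Both genes were removed by the expression filter, and at most 0.44% of their stretches of 50 bases occur in other genes' transcripts.

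CSF2RA, the alpha subunit, had 3, 3 and 5 counts in shNC and 4, 5 and 4 counts in shBry replicates 1, 2 and 3, a ratio of 1.15 (interval 0.474 to 2.83). CSF2RA lies in the first pseudoautosomal region, on chromosome X from 1268800 to 1310381, and 100% of its transcript stretches of 50 bases occur in its annotated copy on chromosome Y. Of 15 coding genes annotated with such a copy there, 8 were listed at 0 in all libraries and 2 had 1 count in all, among them SLC25A6 and CD99, which most cells express. The other 5, CSF2RA among them, had between 24 and 274 counts over the 6 libraries. IL3RA, the alpha subunit of the interleukin 3 receptor, was listed at 0 in the same region, and so was CRLF2, a receptor subunit of the cytokine TSLP. Whether the absence of these genes arose from the cells or from the handling of reads that match both copies was not tested.

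CSF1R, the receptor of CSF1, was not among the 6 genes but was tested. It had 1.7, 1.8 and 0.751 CPM in shNC and 1.18, 1.52 and 0.709 CPM in shBry replicates 1, 2 and 3. The groups overlapped, and the difference of -0.32 on the log2 scale (standard error 0.38) was not called (adjusted p = 0.50, edgeR). IL34, the other ligand of CSF1R, had 7, 4 and 0 counts in shNC and 8, 2 and 14 in shBry. IL5 had 7 counts and IL5RA 1 count over all libraries, and IL3 was at 0. Per kilobase, CSF1R stood at 0.355 ± 0.145 CPM in shNC and 0.285 ± 0.102 in shBry, above CSF2RB and CSF3R in each library. The order of CSF2RB and CSF3R did not hold beyond their spread, with 0.00343 ± 0.00595 and 0.0269 ± 0.0233 CPM per kilobase in shNC and 0.0306 ± 0.0268 and 0.0914 ± 0.0829 in shBry (SD, n = 3).

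The ligand genes were also set beside the coding genes next to them, 5 on each side. Around CSF2, none of the tested neighbours came near its change. IL3, 10.6 kilobases away in the same cytokine cluster, was at 0 in all libraries. Of 10 neighbours 5 were tested, and their median log2 fold change was 0.35. SLC22A4, a cation and ergothioneine transporter gene, was called, with 2.8 ± 0.441 CPM in shNC and 4.29 ± 0.925 in shBry (log2 fold change 0.62, adjusted p = 0.0291, edgeR). That call was lost without shBry replicate 2 (0.45), shBry replicate 3 (0.61), shNC replicate 1 (0.51) or shNC replicate 3 (0.59), and a gene on the other strand overlaps 8.74% of its exon bases.

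Of the 8 tested neighbours of CSF3, 1 was called higher and 3 lower. Over the neighbours of all 3 ligand genes, 38.9% of those tested were called, near the 32.4% of all tested genes. PSMD3, a proteasome subunit gene 17.4 kilobases before CSF3, went down from 193 ± 7.4 to 65.8 ± 3.59 CPM (log2 fold change -1.55, adjusted p = 2.22e-09, edgeR). MED24, a Mediator subunit gene only 1.3 kilobases behind CSF3 on the other strand, had -0.63 (adjusted p = 1.5e-05), and THRA, a thyroid hormone receptor gene, had -0.91 (adjusted p = 9.61e-05). NR1D1, which encodes the clock repressor REV-ERB alpha, rose with 1.52 (adjusted p = 4.33e-08). THRA and NR1D1 overlap on opposite strands, over 3.78% and 9.49% of their exon bases, and the strand setting of the counting is not given in the sources used here. Over the 8 tested neighbours of CSF3 the median was -0.45.

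Around CSF1, GSTM1 and GSTM2, a pair of glutathione transferase genes, were called lower, with log2 fold changes of -1.28 and -0.95 (adjusted p = 3.9e-07 and 0.02, edgeR). They share exon bases with each other or with other genes (38.3% and 10.2%), and 17.9% of the stretches of 50 bases of GSTM1 occur in transcripts of further genes, so their counts are uncertain. The GSTM2 log2 fold change lost its call without shBry replicate 3 (-0.65) or shNC replicate 1 (-0.88). The other 3 tested neighbours of CSF1 were not called, and of these AHCYL1 (-0.41, adjusted p = 0.00112, edgeR) missed only the fold change limit.

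**Figure D4:**
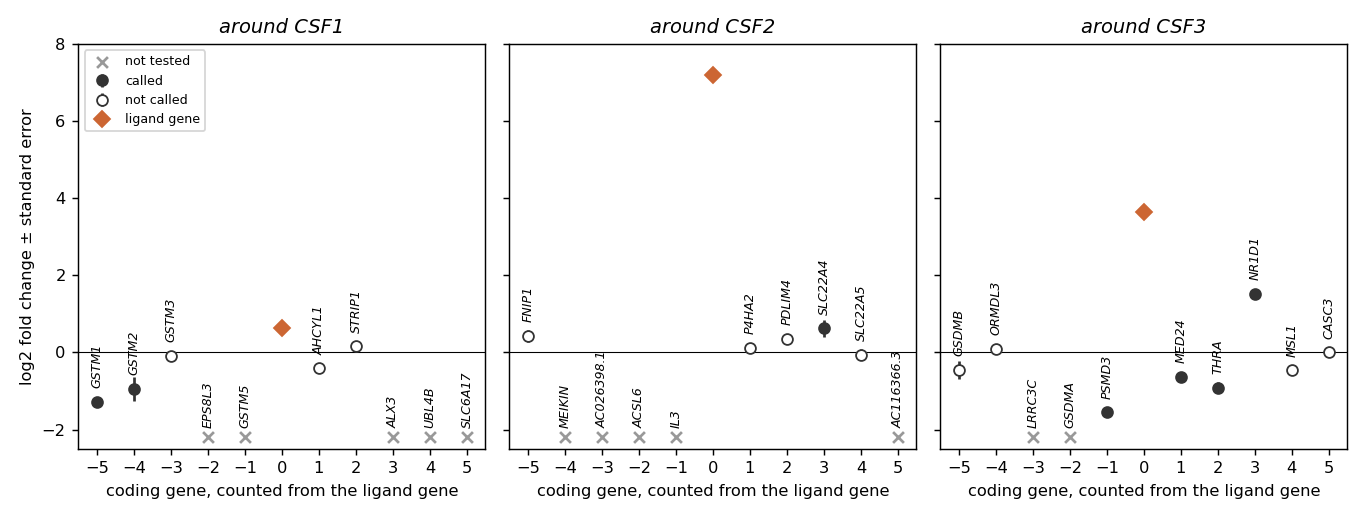
Log2 fold change of shBry relative to shNC with its standard error for CSF1, CSF2 and CSF3 (diamonds) and for the 5 nearest coding genes on each side, in order along the chromosome, with crosses for genes that were not tested. The diamond of CSF2 stands at 7.21 and that of CSF3 at 3.63, and the tested neighbours lie between -1.55 and 1.52.

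Transcription factors known to act on colony-stimulating factor genes were mostly higher in shBry. Of 24 such genes, all tested, 15 were called higher and 0 lower by edgeR, DESeq2 and limma-voom alike, with 1 lower at an unadjusted edgeR p under 0.05 and any fold, and with a median log2 fold change of 0.85 against 0.03 over all tested genes. The background shares are 17.1% higher and 15.2% lower. This list and the gene lists that follow were chosen with earlier results of these data known, so an excess over these shares is not read as a result. RELB and NFKB2, of the noncanonical NF-kappa-B pair, rose from 26.3 ± 3.31 to 110 ± 7.34 CPM (log2 fold change 2.05, adjusted p = 1.92e-09, edgeR) and from 110 ± 7.66 to 340 ± 25.6 CPM (1.62, adjusted p = 2.84e-09). RELA and NFKB1, the classical pair, were also higher but under the fold change limit, so they were not called. They had 0.26 (adjusted p = 0.0192, edgeR) and 0.46 (adjusted p = 0.000265). Of the AP-1 family, JUNB rose from 99.2 ± 12.2 to 385 ± 23 CPM (1.96, adjusted p = 1.47e-09), with 14.2% of its exon bases overlapped on the other strand. FOSB rose from 1.81 ± 0.348 to 5.12 ± 0.748 CPM (1.50, adjusted p = 6.02e-05). FOSL1, the AP-1 gene with the most counts among the FOS genes, had -0.03 and was not called. Of the C/EBP family, CEBPG had 1.99 (adjusted p = 3.37e-10) and CEBPB 1.59 (adjusted p = 9.31e-09), and CEBPA was not called (-0.19). On the other strand, 43.4% of the exon bases of CEBPA and 11.8% of those of CEBPB are overlapped. The 9 further called genes had log2 fold changes between 0.66 and 1.40. None of the NFAT genes was called, with -0.38 for NFATC1, 0.30 for NFATC2 and -0.15 for NFATC3. NFATC1 (adjusted p = 0.0458, edgeR) missed only the fold change limit.

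Of 16 genes that control AU-rich mRNAs, 5 were called higher and 1 lower, and the median log2 fold change was 0.14. The called share of 37.5% was near the 32.4% of all tested genes, so the members are described singly. ZC3H12A, which encodes the cytokine mRNA nuclease regnase-1, rose from 16.6 ± 0.592 to 70.9 ± 3.67 CPM (2.10, adjusted p = 6.34e-10, edgeR). ZFP36, which encodes tristetraprolin, a factor that binds ATTTA repeats and promotes decay, rose from 19 ± 1.17 to 45.9 ± 1.45 CPM (1.27, adjusted p = 1.63e-07), and its relative ZFP36L1 had 0.72 (adjusted p = 2.31e-06). HNRNPD, the gene of the AU-binding protein AUF1, fell with -0.64 (adjusted p = 2.44e-05). RC3H1, the gene of roquin, had 0.77 (adjusted p = 0.00702) and fell under the fold change limit without shBry replicate 2 (0.57). NCL, the gene of nucleolin, had 0.59 and did so without shBry replicate 1 (0.58), shBry replicate 3 (0.57), shNC replicate 1 (0.52) or shNC replicate 2 (0.53). It also did so with DESeq2, without TMM scaling and with no expression filter (0.57 each), and with at least 10 counts required in every library (0.58). ELAVL1, the gene of the stabilizing protein HuR, was not called because it missed the fold change limit (-0.24, adjusted p = 0.0178, edgeR). The decay of the mRNAs itself was not measured.

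Downstream of the receptors, 31 of 33 signalling genes were tested, 7 were called higher and 3 lower, and the median log2 fold change was 0.22. The called share of 32.3% stood beside 32.4% for all genes. The called genes include SOCS genes, which encode inhibitors of cytokine receptor signalling. The phosphatase gene PTPN6 (-0.0045) and the ubiquitin ligase gene CBL, which also restrain such signals, were not called. CBL (0.43, adjusted p = 0.00278, edgeR) missed only the fold change limit. SOCS1 had 0.472 ± 0.233 CPM in shNC and 1.72 ± 0.334 in shBry (1.85, adjusted p = 0.000865, edgeR). SOCS2 had 0.77 (adjusted p = 5.02e-05), and SOCS3 rose from 48.8 ± 1.91 to 82.7 ± 4.86 CPM (0.76, adjusted p = 5.12e-06). PIM1, a kinase gene induced by STAT factors, rose from 50.2 ± 3.3 to 107 ± 4.26 CPM (1.09, adjusted p = 1.35e-07). The adaptor gene SHC1 (-0.73, adjusted p = 2.64e-06) and the ERK1 gene MAPK3 (-0.78, adjusted p = 2.44e-06) fell, and 15.2% of the exon bases of SHC1 are overlapped. The kinase gene that works directly on the CSF2 receptor, JAK2, was not called, with 1.76 ± 0.419 CPM in shNC and 2.2 ± 0.485 in shBry (0.32, adjusted p = 0.344). Its targets STAT5A (0.25, adjusted p = 0.0361, edgeR) and STAT5B (-0.27, adjusted p = 0.0125) were not called because they missed the fold change limit. Of their stretches of 50 bases, 8.61% and 9% are shared with other genes' transcripts. INPP5D, which encodes an inositol phosphatase of blood cells, was at 0.

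Of 12 other haematopoietic growth factor genes, 7 were tested, 4 were called higher and 0 lower by edgeR, where 17.1% of all tested genes were called higher and 15.2% lower. DESeq2 called 3 higher and limma-voom 4, both with 0 lower, and 0 were lower at an unadjusted edgeR p under 0.05. IL6 rose from 0.427 ± 0.0667 to 48.8 ± 5 CPM (6.81, adjusted p = 2.33e-12, edgeR), with 20.7% of its exon bases overlapped on the other strand. LIF rose from 48.4 ± 4.34 to 519 ± 18.1 CPM (3.42, adjusted p = 2.33e-12), and IL11 from 5.73 ± 0.368 to 39 ± 1.65 CPM (2.77, adjusted p = 4e-10). The IL15 log2 fold change was 0.78 (adjusted p = 0.0398), a call lost without shBry replicate 2 (0.68), shBry replicate 3 (0.78), shNC replicate 1 (0.81) or shNC replicate 2 (0.54), with adjusted p between 0.08 and 0.19, and also with DESeq2 (adjusted p = 0.095) and without TMM scaling (adjusted p = 0.051). KITLG (-0.57), FLT3LG (0.54) and IL7 (0.02) were not called, and FLT3LG (adjusted p = 0.0136, edgeR) missed only the fold change limit. Of 12 other haematopoietic receptor genes 7 were tested, and 2 were called higher and 2 lower, with a median log2 fold change of 0.19, beside the same background shares. IL6ST, the signal subunit shared by the receptors of IL6, LIF and IL11, rose from 36.6 ± 6.9 to 81.9 ± 21.8 CPM (1.16, adjusted p = 4.2e-05), and IL7R from 15.4 ± 1.22 to 31.6 ± 5.11 CPM (1.04, adjusted p = 1.64e-05). IL11RA (-0.92, adjusted p = 0.000183) and EPOR (-0.66, adjusted p = 0.000372) fell, with 17.7% of the exon bases of IL11RA overlapped.

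**Figure D5:**
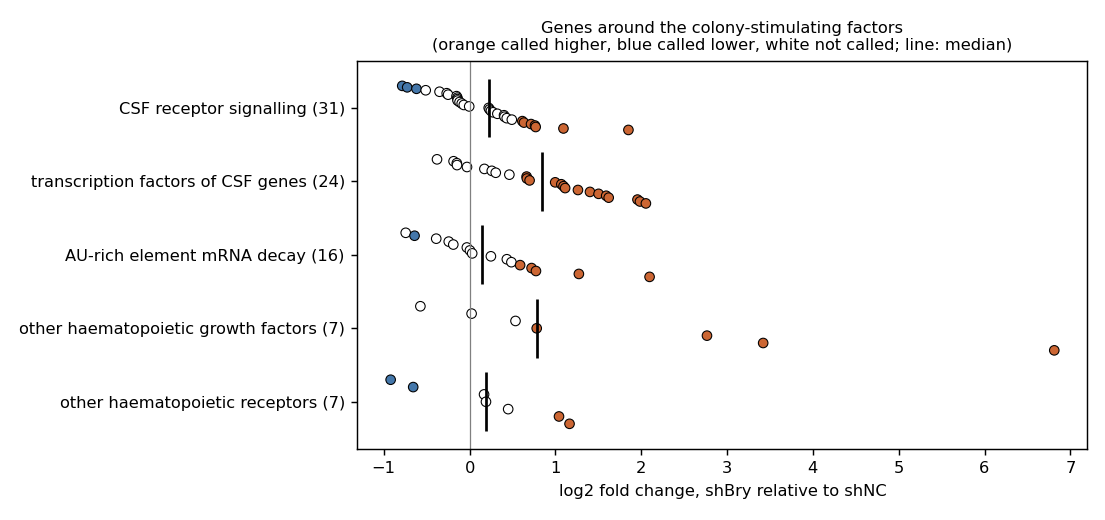
Log2 fold change of shBry relative to shNC for every tested gene of 5 lists, with the number tested in brackets, orange for called higher, blue for called lower, white for not called and a line at the median. The transcription factor list has its median at 0.85 and no gene called lower, while the signalling list, with a median of 0.22, spreads to both sides.

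The genes most like each ligand gene were found by the Euclidean distance between log2 CPM profiles over the 6 libraries, each centred on its shNC mean. Likeness over 2 groups rests mainly on a similar difference between them, and genes were picked by that measure, so no test is given. For CSF2 they were CXCL8, IL1A, IL6, GDF15 and LCN2, at distances of 0.603, 0.817, 1.06, 2.11 and 2.23 on the log2 scale, against a median of 12.4 over all genes, and CXCL2 followed at 2.41. CXCL8, a neutrophil-attracting chemokine gene, went from 1.71 to 297 CPM, and IL1A, an alarm cytokine gene, from 2.78 to 314 CPM, both close to the levels of CSF2. GDF15 and LCN2 had under 0.1 CPM in shNC, where the distance depends on the prior count added. Among the nearest to CSF3 were CHAC1, INHBA, EGR1 and UPP1, at distances of 0.214 to 0.342, and LIF stood at 0.372. CHAC1 encodes a glutathione-degrading enzyme, INHBA an activin subunit, EGR1 an immediate-early transcription factor and UPP1 a uridine phosphorylase, and UPP1 went from 42.8 to 485 CPM. For CSF1 the nearest were PLXNB3, PCBP1-AS1, TMC7, ULK1 and LINC01296, at distances of 0.165 to 0.194. PLXNB3 lost its call without shBry replicate 1 (0.58), shBry replicate 2 (0.54) or shNC replicate 3 (0.45), PCBP1-AS1 without shNC replicate 3 (0.58), and LINC01296 without shBry replicate 3 (0.57) or shNC replicate 3 (0.48). PLXNB3 and LINC01296 also lost theirs with DESeq2 or without TMM scaling (0.58 each), and with no expression filter (0.57 each). Another gene overlaps 20.4% of the exon bases of PLXNB3.

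ITGAM, an integrin gene listed among the myeloid markers, differed in the same direction as the ligand genes, with 22, 24 and 20 counts in shNC and 79, 120 and 124 in shBry replicates 1, 2 and 3. CD14, another of these markers, went the other way, from 38, 38 and 40 counts to 12, 24 and 14. The defining leukocyte marker PTPRC was at 0 in all libraries. In bulk RNA, more expressing cells and more RNA per cell cannot be told apart.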

How the data were processed

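RNA of 3 MDA-MB-231 shBry and 3 shNC libraries was compared, grouped by the labels. The authors deposited raw counts per gene symbol without normalization. The submitters' processing notes name HISAT2 2.0.4, HTSeq and GRCh38, while the annotation and strand setting are not given in the sources used here. Genes were filtered with filterByExpr (minimum count 10), scaled with TMM and tested in edgeR 4.0.16 (glmQLFit and glmQLFTest, the quasi-likelihood method, under R 4.3.3), and p-values were adjusted by Benjamini-Hochberg. The standard error was the log2 fold change divided by the square root of F. The code was tested on simulated data. Alternatives were DESeq2 1.42.0, limma-voom (limma 3.58.1), no TMM, other filters, thresholds and prior count, a replicate block and each library left out. Members and gene lists were chosen with earlier results of these data known. Named genes were the members, direct partners, up to 6 called genes per list by absolute log2 fold change, up to 4 called neighbours per locus and the 5 nearest profiles per ligand (prior count 2), of which some are not reported here. ITGAM, CD14 and further uncalled list genes were added after their values were seen. Gene models came from GENCODE 29 on GRCh38, matched by symbol. Depth was 19319411 to 22985371 counts per library.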

Additional observations from a re-analysis of the deposited data

How the results depend on the processing

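With a fold change limit of 2, calls over all genes numbered 2297, against 4945 with a limit of 1.5, and 2 of the receptor signalling genes, 2 of the AU-rich mRNA genes, 2 of the other haematopoietic receptor genes and 3 of the neighbouring genes were past the limit. The other counts and the log2 fold changes of CSF1, CSF2 and CSF3 stayed within 1.5 times or within the spread between libraries. With each library left out in turn, CSF2 had log2 fold changes between 7.12 and 7.27, CSF3 between 3.56 and 3.66 and CSF1 between 0.50 and 0.70. The labels link the groups only by replicate numbers, and deviations of same-numbered libraries correlated at 0.183, -0.084 and -0.028. These values cannot show whether same-numbered libraries shared a culture or a batch. With the replicate block, calls over all genes numbered 4914, CSF1, CSF2 and CSF3 had 0.65, 7.21 and 3.63, and IL15 lost its call. Of 51 named genes outside the members, 8 lost their call under at least one alternative other than the fold change limit of 2, and no direction changed. That count leaves out SOCS1, IL6, GDF15 and LCN2, which were not tested where at least 10 counts were required in every library. List medians moved when a library was left out. They lay between 0.09 and 0.21 for the signalling genes and between 0.06 and 0.34 for the AU-rich mRNA genes. For the transcription factor genes they lay between 0.77 and 0.96. With no expression filter, the median of the other haematopoietic receptor genes changed sign, from 0.19 to -0.09. That of the other haematopoietic growth factor genes went from 0.78 to 0.37. CSF2RB and CSF3R are limited by depth, with at most 12 counts in any library.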
